A study of Homo sapiens with 15 samples.

Results

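The untreated transcriptome of PATU-8988T cells was described from the 3 libraries of cells kept in DMSO alone, out of 15 libraries in the study. PATU-8988T is an established human cell line that was derived from a liver metastasis of a pancreatic adenocarcinoma. The DMSO libraries were chosen by their label and comprised 3 replicates in 0.1% DMSO, the solvent of the compounds, for which no time is given. The other 12 libraries came from the same line given THZ1 or YKL-5-124, inhibitors of the transcription kinase CDK7, at 100 nM for 4 or 24 h, and are not described here. All cells were grown in DMEM with fetal bovine serum, carried no engineered change named in the labels, and total RNA was sequenced. The line is a single tumour's descendant, so its levels describe these cells and not pancreatic cancer at large, and the labels do not say whether the replicates were separate cultures.

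Pancreatic ductal adenocarcinoma arises in the exocrine pancreas, which holds acinar cells that make digestive enzymes and duct cells that secrete bicarbonate. Many such tumours lose CDKN2A or SMAD4 function. Their RNA has been sorted into a classical type, with endodermal transcription factors and mucus genes, and a basal-like type with squamous or mesenchymal genes. RNA levels by themselves do not show mutations or protein.

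Reads were counted on 58676 genes, of which 19821 are protein-coding, and the libraries held 19651529, 20419216 and 20517571 counts in replicates 1, 2 and 3. Levels are given in TPM, that is, counts divided by the exonic length of the gene and scaled to the same sum in each library. This puts genes of different length on a common scale. It does not remove the differences between libraries along gene length and GC content that are described below. Those differences also enter the levels of long or GC-rich genes and the ratios between genes. Means are given ± SD over the 3 libraries (n = 3), and values for single libraries are in the order of replicates 1, 2 and 3. A gene was called expressed at 1 TPM or more in each library and silent at under 0.1 TPM in each library. By this rule 10581 protein-coding genes (53.4%) were expressed, 6032 (30.4%) were silent, of which 4860 had 0 counts in all 3 libraries, and 3208 lay between. The median was 2.53 TPM over all protein-coding genes and 23.9 TPM over the expressed ones. Of the expressed genes 5806 lay between 10 and 100 TPM and 126 reached 1000 TPM or more. Since only 1 group is described, no test between groups was made.

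Replicate 2 stood apart from replicates 1 and 3. Across the 8579 genes that averaged 10 CPM or more (counts scaled to the library total and TMM factors), the median ratio of the highest to the lowest library was 1.25, and 394 genes (4.59%) differed by more than 2-fold. Replicate 2 was the highest library for 369 of these genes and the lowest for the other 25. Between replicates 1 and 3 alone the median ratio was 1.06 and 4 genes differed by more than 2-fold. The biological coefficient of variation, edgeR's estimate of the spread beyond counting error, was 0.208 with all 3 libraries and 0.0613 without replicate 2. Many levels are therefore given for each library, and for several genes also as a mean without replicate 2. Which libraries lie nearer the true levels was not tested, so that mean is not a corrected value.

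Another limit lies in the counting. Of the 526 protein-coding genes with under 10% of their exonic bases free of another gene, 1 was expressed and 487 had 0 counts, whereas 8669 of the 15793 genes with at least 90% free bases were expressed. A 0 in a gene that overlaps another is therefore no sign that its RNA was absent. This holds for PIK3R2, GTF2H4, RNF43, CD68, CTRL, GLS2 and CPT1B among the genes listed here, each with under 50% of its bases free of other genes.

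The 4 promoter windows printed here each run from 250 bases before to 50 bases after a gene's start, 5′ to 3′, on build GRCh38.p14, from RefSeq. The first pair is shown because both genes had 0 counts in a line that expressed most members of the gene lists that hold them. Capitals mark CG dinucleotides.
LDHB: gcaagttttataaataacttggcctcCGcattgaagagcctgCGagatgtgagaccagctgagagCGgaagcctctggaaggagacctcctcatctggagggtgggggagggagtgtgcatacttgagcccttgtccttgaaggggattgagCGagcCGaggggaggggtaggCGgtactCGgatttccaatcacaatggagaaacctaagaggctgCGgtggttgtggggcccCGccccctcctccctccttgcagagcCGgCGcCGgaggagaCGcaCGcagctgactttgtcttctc
MAP2K4: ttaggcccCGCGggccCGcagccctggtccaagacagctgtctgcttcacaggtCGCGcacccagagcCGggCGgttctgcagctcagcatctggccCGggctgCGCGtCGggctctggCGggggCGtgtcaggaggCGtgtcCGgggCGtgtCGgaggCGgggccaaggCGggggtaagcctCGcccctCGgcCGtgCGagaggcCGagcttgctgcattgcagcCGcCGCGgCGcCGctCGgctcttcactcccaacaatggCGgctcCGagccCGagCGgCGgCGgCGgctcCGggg
The LDHB window (chr12:21657793-21658092, minus strand) held 14 CG dinucleotides, the median number over all 35116 windows. The MAP2K4 window (chr17:12020627-12020926, plus strand) held 38, a number reached by 9.91% of all windows.
The second pair is shown because both windows carry the TATA box letters TATAAA, in capitals, between 40 and 20 bases before the start, while KISS1 was among the highest genes and PRSS1 had no count.
KISS1: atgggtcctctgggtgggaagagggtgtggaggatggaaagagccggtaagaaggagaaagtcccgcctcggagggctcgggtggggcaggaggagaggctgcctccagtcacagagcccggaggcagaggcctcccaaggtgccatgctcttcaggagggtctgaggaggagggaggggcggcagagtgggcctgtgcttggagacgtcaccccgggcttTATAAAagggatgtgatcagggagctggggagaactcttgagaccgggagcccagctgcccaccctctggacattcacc
PRSS1: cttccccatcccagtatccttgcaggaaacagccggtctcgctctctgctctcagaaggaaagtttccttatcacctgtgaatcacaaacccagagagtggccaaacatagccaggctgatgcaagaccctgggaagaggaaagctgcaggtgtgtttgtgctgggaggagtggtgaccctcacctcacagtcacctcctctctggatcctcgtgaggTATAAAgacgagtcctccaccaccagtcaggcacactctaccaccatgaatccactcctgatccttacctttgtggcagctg
In the KISS1 window (chr1:204196442-204196741, minus strand) the letters began 29 bases before the start. In the PRSS1 window (chr7:142749222-142749521, plus strand) they began 32 bases before it. These letters on the gene's own strand at 40 to 20 bases before the start were found in 2.30% of all windows, and on either strand anywhere in the window in 11.5%. The 4 genes were chosen after their values were seen, and the letters are a description of the windows, not of what acted there.

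The cells expressed the keratins of simple epithelia at high levels, without the further keratins of duct cells. KRT8, the type II keratin of simple epithelia (chr12:52897187-52949954), was at 647, 636 and 703 TPM. Its usual partner KRT18, a type I keratin (chr12:52948871-52952901), was at 555, 645 and 561 TPM. Their TPM ranges overlap and the 2 genes overlap at their ends on the chromosome, with 92.4% and 83.7% of their bases free. Together they made 85.8% of the summed TPM of the 55 keratin genes. KRT10 was at 140.2 ± 28.4 TPM and KRT80 at 58.8 ± 14.5 TPM. KRT7, the keratin of duct epithelium, was under 1 TPM in each library (0.707, 0.682 and 0.841 TPM). KRT19, the type I keratin that marks pancreatic ducts, had 0 counts in all 3 libraries, as did KRT5 and KRT14 of squamous basal layers. Only 5 of the 55 keratins were expressed and 42 were silent, 40 of them with 0 counts, and KRT34 (5.30 TPM) was the lowest of the expressed ones. The expressed and silent shares were 9.09% and 76.4%, beside 53.4% and 30.4% of all protein-coding genes.

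Adhesion genes were split in the same way. Of 55 genes of epithelial junctions and their regulators 30 were expressed and 8 silent (54.5% expressed, beside 53.4% of all protein-coding genes). The catenin genes CTNNB1, CTNNA1 and CTNND1, which link cadherins to actin, were at 407 ± 12.8, 208 ± 32.6 and 99.5 ± 7.75 TPM. SPINT2, a serine protease inhibitor, was at 243 ± 11.5 TPM, the tight junction gene CLDN1 at 141 ± 10.6 TPM and the desmosomal cadherin DSG2 at 131 ± 19.9 TPM. EPCAM, an epithelial adhesion molecule, was expressed at 25.3, 19.2 and 21.9 TPM. In contrast, CDH1, which encodes E-cadherin, was at 0.146, 0.151 and 0.195 TPM. ESRP1, a splicing factor of epithelia, was at 0.148, 0.229 and 0.283 TPM. GRHL2, RAB25 and CLDN2 had 0 counts, and CLDN4 and CLDN7 had means of 0.180 and 0.0491 TPM. The list thus held genes above 100 TPM and genes with no count, with CTNNB1 at the top and CDH1 near the floor.

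CDH2, which encodes the mesenchymal N-cadherin, was at 14.6, 22.9 and 13.6 TPM and thus exceeded CDH1 in every library. The ratio of CDH2 to CDH1 was 102-fold (log2 CDH1 to CDH2 -6.67 ± 0.56, mean ± SD). The size of this fold rests on a CDH1 level near the floor. ZEB1, a repressor of epithelial genes, was at 10.7, 14.8 and 11.1 TPM, 56.9-fold above ESRP1 (100.9-fold without length scaling). ESRP1 was likewise near the floor, so the size of that fold has the same limit. VIM, the intermediate filament of mesenchymal cells, was at 135, 168 and 137 TPM, and KRT18 exceeded it 4.01-fold (2.6004-fold without length scaling). Vimentin RNA was thus clearly present but below the RNA of the simple-epithelial keratins in all 3 libraries.

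Of 43 mesenchymal genes 24 were expressed and 11 silent. These shares, 55.8% and 25.6%, were near the 53.4% and 30.4% of all protein-coding genes. HMGA1, an architectural chromatin protein, was at 1143, 1699.7 and 1277 TPM, the caveolar coat gene CAVIN1 was at 287, 559.7 and 336 TPM and the tropomyosin gene TPM2 at 285 ± 12.2 TPM. SNAI1 and SNAI2, which encode repressors of E-cadherin, were near 1 TPM, with SNAI1 at 1.29, 2.87 and 1.53 TPM and SNAI2 at 1.74, 0.897 and 1.28 TPM. FN1, which encodes fibronectin, was at 1.07, 3.02 and 1.10 TPM, and its mean without replicate 2 was 1.08 TPM. TWIST1, TWIST2, PRRX1 and FOXC2 had 0 counts, and ZEB2, CDH11 and MMP2 were silent, with means of 0.0593, 0.00464 and 0.0122 TPM. Cytoskeletal and caveolar genes above 100 TPM thus stood beside TWIST and PRRX1 factors with no count.

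**Figure D1:**
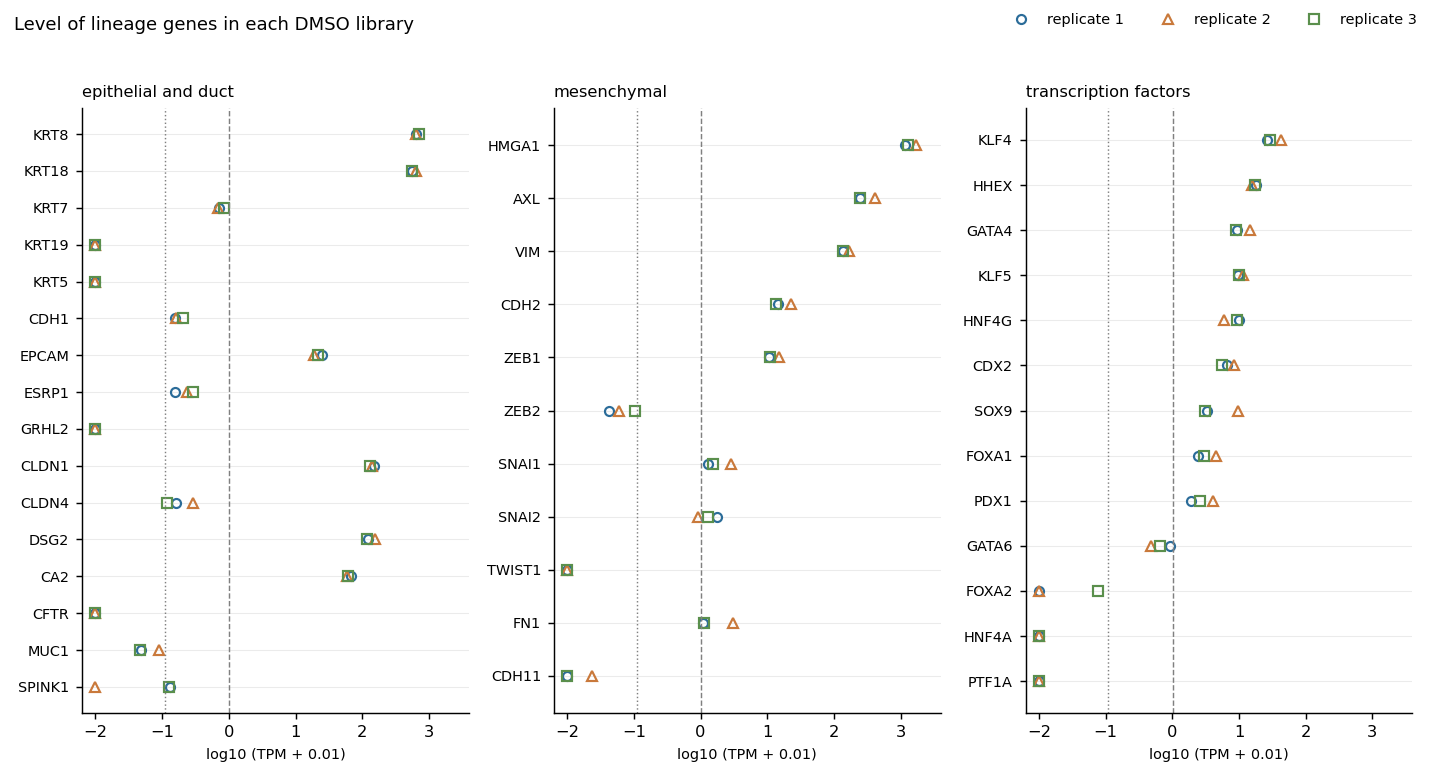
Level of lineage genes in each DMSO library, as log10 of TPM plus 0.01, with a circle, triangle and square for replicates 1, 2 and 3; the dashed line marks 1 TPM, the dotted line 0.1 TPM and points at -2 have 0 counts. KRT8 and KRT18 lie near the right edge while KRT19, KRT5, GRHL2 and CFTR lie at -2. CDH2 is higher than CDH1 in every library, and HNF4A and PTF1A lie at -2.

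Duct genes were sparse. Of 26 genes of pancreatic ducts 8 were expressed and 11 silent (30.8% and 42.3%, beside 53.4% and 30.4% of all protein-coding genes). CA2, a carbonic anhydrase of bicarbonate secretion, was highest at 68.2, 59.01 and 60.9 TPM, followed by the anion exchanger SLC4A2 at 41.6 ± 10.3 TPM and the annexin ANXA4 at 24.4 ± 1.47 TPM. CFTR, the chloride channel of the duct, had 0 counts, as did the trefoil genes TFF1, TFF2 and TFF3 and the immunoglobulin receptor PIGR. SOX9, a transcription factor of duct and progenitor cells, was at 3.36, 9.56 and 3.06 TPM, and its mean without replicate 2 was 3.21 TPM. MUC1 was silent at 0.0513 TPM. All 19 mucin genes listed were silent, with a summed level of 0.0843 to 0.212 TPM over the 3 libraries.

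Acinar and islet products were at or near 0. Of 29 acinar markers 22 were silent, 21 with 0 counts, including PRSS1, PRSS2, CPA1, CPB1, PNLIP and CEL, which encode digestive enzymes. The single expressed member was CUZD1, a zymogen granule protein, at 2.71, 4.19 and 2.24 TPM. Of 20 islet and neuroendocrine markers 11 were silent, and INS, GCG and SST, the hormone genes, had 0 counts. SYP, the synaptic vesicle gene, was at 1.93 ± 0.312 TPM and the granin CHGB at 1.40, 2.26 and 1.10 TPM, the 2 expressed members. The silent shares were 75.9% of the acinar and 55.0% of the islet markers, beside 30.4% of all protein-coding genes. A count of 0 allows up to 3 counts, which is 0.146 to 0.153 CPM in a library, and this limit covers counting error only.

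The endodermal transcription factors formed a partial set. Of 46 factors of pancreas, foregut and endoderm 12 were expressed, 14 lay between and 20 were silent. The expressed and silent shares were 26.1% and 43.5%, beside 53.4% and 30.4% of all protein-coding genes. KLF4, a zinc finger factor of epithelial differentiation, was highest at 26.7, 43.2 and 28.8 TPM, and HHEX, a homeobox factor of early endoderm, was at 18.05, 15.6 and 17.2 TPM. GATA4 was at 9.20, 14.4 and 8.95 TPM, whereas GATA6, its relative and a marker of classical tumours, was at 0.917, 0.472 and 0.655 TPM. HNF4G was at 9.86, 5.93 and 9.21 TPM, whereas its relative HNF4A had 0 counts. GATA5 was at 0.627, 1.36 and 1.13 TPM. Of these 5 genes GATA4 and HNF4G alone were above 1 TPM in all libraries, and the other GATA factors were not on the list.

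The intestinal factor CDX2 was at 6.49, 8.31 and 5.64 TPM and KLF5 at 9.80, 11.5 and 9.86 TPM. PDX1, the factor of pancreas formation, was at 1.88, 4.09 and 2.62 TPM, and its mean without replicate 2 was 2.25 TPM. FOXA1 was at 2.45, 4.44 and 3.03 TPM. MNX1 was at 2.54, 6.64 and 4.55 TPM and TBX3 at 2.37, 4.44 and 2.604 TPM, with replicate 2 highest for each of these 3 genes. FOXA2 had a mean of 0.0220 TPM. PTF1A, the factor of acinar cells, had 0 counts. ELF3, EHF, SPDEF and TP63 had means of 0.0164, 0, 0.155 and 0.00809 TPM. Below HHEX, each factor down to PDX1 overlapped the range of the next lower one, so that their order is not resolved at n = 3.

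Neither published tumour subtype list was expressed as a block. None of 24 genes of the classical list was expressed, 22 were silent and 19 had 0 counts, among them AGR2, CEACAM6, TSPAN8, LGALS4 and CTSE; the highest was VSIG2 at 0.212 TPM. Of 25 genes of the basal-like list 5 were expressed and 13 silent. Among the 5 expressed genes were SLC2A1, a glucose transporter, at 144, 141 and 116 TPM, the calcium-binding S100A2 at 39.2, 45.5 and 45.5 TPM, the protease inhibitor CST6 at 20.9 ± 4.37 TPM and the cathepsin CTSV at 12.2 ± 1.30 TPM. KRT6A, KRT6C, SPRR1B, LY6D and SERPINB3, genes of squamous epithelia, had 0 counts. Both shares lie under the 53.4% of all protein-coding genes. The lists were made from tumours, in which other cells are present.

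HOX, S100 and integrin genes gave further family patterns. In these families 33.3%, 38.1% and 38.5% of the genes were expressed, beside 53.4% of all protein-coding genes. Of 39 HOX genes, which record position along the body axis, 13 were expressed, with 6 of 10 in the HOXB cluster, 4 of 9 in HOXC, 3 of 11 in HOXA and 0 of 9 in HOXD. HOXB7 was highest at 54.1, 59.2 and 50.1 TPM, and HOXB2 and HOXC9 were at 10.2 ± 0.435 and 9.79 ± 0.714 TPM. Several HOX genes overlap neighbours on either strand, among them HOXC5, HOXA7, HOXD1, HOXD3 and HOXD4. In the S100 family of calcium-binding proteins S100A6 was at 1479.6, 1450.4 and 1602 TPM and S100A11 at 387, 529 and 415 TPM, together 81.2% of the family's summed TPM. S100P, often raised in pancreatic tumours, had 0 counts, as did S100A8 and S100A9. Among 26 integrin genes, which encode matrix receptors, 10 were expressed, led by ITGB1 at 556, 637 and 513 TPM, ITGA6 at 358, 454 and 335 TPM and ITGA3 at 152, 328 and 180.5 TPM. ITGB4, the usual partner of ITGA6 in hemidesmosomes, was at 1.10, 9.80 and 1.88 TPM, with replicate 2 the highest, and its mean without replicate 2 was 1.49 TPM.

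Receptor tyrosine kinases, the receptors of most growth factors, were expressed in 21 of 58 cases, with 18 silent. These shares, 36.2% and 31.0%, stood beside 53.4% and 30.4% of all protein-coding genes. AXL, the receptor of GAS6, was highest at 246, 413 and 247 TPM. EPHA2, an ephrin receptor, was at 177, 235 and 174 TPM. MET, the receptor of HGF, was at 79.6, 99.8 and 76.2 TPM. The 3 libraries of each of these did not overlap those of the next lower receptor. RYK, a WNT receptor, was at 58.01, 53.4 and 53.6 TPM and EGFR at 36.8, 62.5 and 34.01 TPM, and these overlapped. MET was 1.98-fold above EGFR in TPM, and 1.07-fold above it without length scaling. From RYK on, the order down to FGFR1 was not resolved, and the same holds for the receptors between MERTK and DDR2.

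Among the ERBB receptors EGFR stood above ERBB2 in every library, 3.24-fold (log2 1.70 ± 0.09; 2.05-fold with the length of the longest transcript). ERBB2 was at 10.5, 20.3 and 10.7 TPM, ERBB3 at 1.17, 1.03 and 0.994 TPM and ERBB4 at 0.00476 TPM. MST1R, the relative of MET, was at 16.3, 16.6 and 14.2 TPM, 5.41-fold below MET. Of the FGF receptors FGFR1 was at 20.5, 47.5 and 24.6 TPM and FGFR4 at 11.4, 12.7 and 9.73 TPM, while FGFR2 was at 0.991, 1.04 and 0.966 TPM. IGF1R, the receptor of insulin-like growth factors, was at 3.01, 6.21 and 2.75 TPM and INSR, the insulin receptor, at 3.37, 5.09 and 2.88 TPM, and these overlapped. PDGFRA, PDGFRB, KDR, ALK and CSF1R were silent, and ROS1, NTRK2, NTRK3, EPHA5, EPHA7 and INSRR had 0 counts. The TAM family, AXL, MERTK and TYRO3, was present in full, with AXL highest, MERTK at 16.4 ± 2.92 TPM and TYRO3 at 2.54 ± 0.482 TPM.

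**Figure D2:**
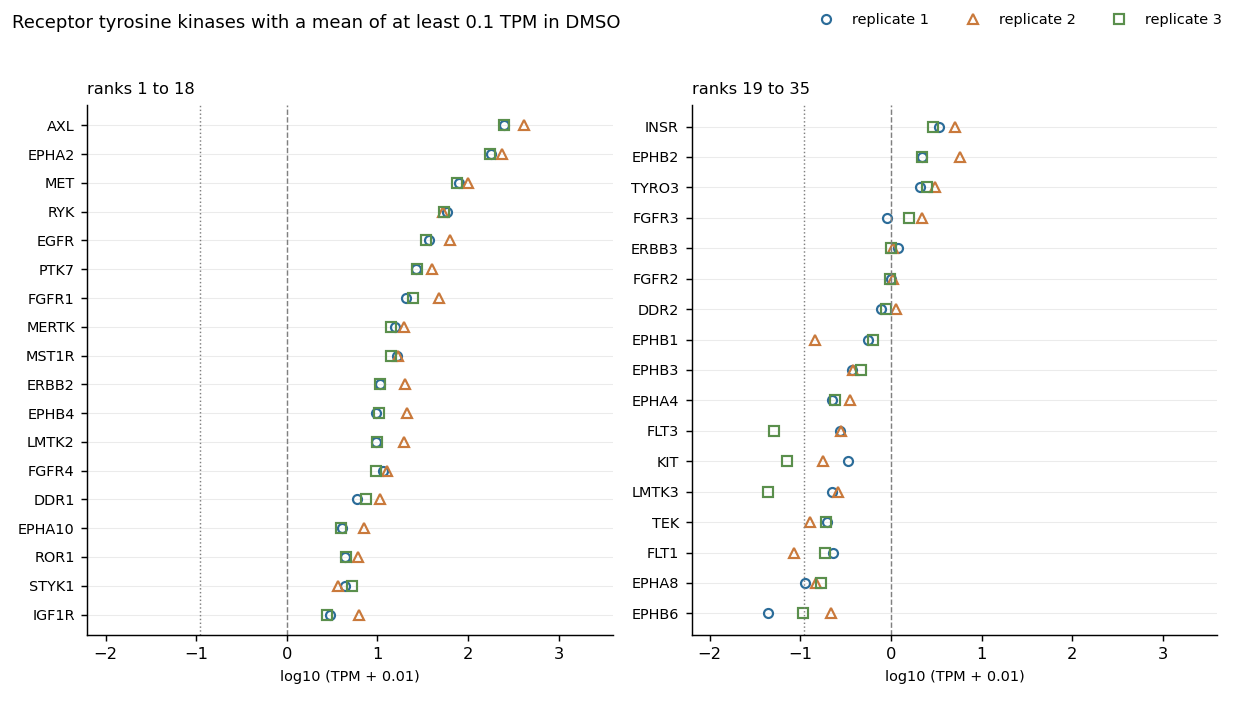
Receptor tyrosine kinases with a mean of at least 0.1 TPM, in order of their mean, as log10 of TPM plus 0.01 in each DMSO library; the dashed line marks 1 TPM and the dotted line 0.1 TPM. AXL, EPHA2 and MET lead without overlap in TPM, and replicate 2 (triangle) is the highest library for most receptors of the left panel.

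Of 56 ligands of these receptors 23 were expressed and 17 silent (41.1% and 30.4%, beside 53.4% and 30.4% of all protein-coding genes). PROS1, which encodes protein S and binds the TAM receptors, was highest at 58.5, 58.2 and 50.7 TPM, and GAS6, the ligand of AXL, was at 11.8, 27.2 and 13.1 TPM. VEGFB was at 18.4, 55.3 and 26.3 TPM and the ephrin EFNA1 at 20.99 ± 0.355 TPM. Of the EGFR ligands HBEGF was at 31.8, 30.8 and 29.7 TPM, TGFA at 11.1, 11.6 and 9.64 TPM, BTC at 3.70 ± 0.935 TPM and AREG at 1.08 ± 0.255 TPM, while EREG had 0 counts. HGF, the ligand of MET, had 0 counts. FGF1 and FGF2 were at 16.95 ± 2.04 and 10.1 ± 2.52 TPM. AXL and EGFR were thus each measured beside a ligand RNA, and MET was not.

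Of 48 nuclear receptors 20 were expressed and 16 silent (41.7% and 33.3%, beside 53.4% and 30.4% of all protein-coding genes). NR2F6 led at 80.8, 94.5 and 93.8 TPM, followed by NR1D2, a clock gene, at 62.4 ± 2.53 TPM, RXRB, the retinoid X receptor, at 56.1 ± 5.15 TPM, NR1H2 at 47.9 ± 5.93 TPM and ESRRA at 45.4 ± 3.78 TPM. NR3C1, the glucocorticoid receptor, was at 19.4, 23.99 and 20.5 TPM, and VDR, the vitamin D receptor, at 2.07, 2.85 and 2.67 TPM. The progesterone receptor gene PGR had 0 counts and ESR1, the estrogen receptor gene, had a mean of 0.00455 TPM. NR5A2, an acinar and ductal factor, had a mean of 0.00798 TPM.

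Of 47 receptors and effectors of WNT, NOTCH, Hedgehog, TGF-beta and Hippo signalling 34 were expressed (72.3%, beside 53.4% of all protein-coding genes). TEAD1, the factor at the end of the Hippo pathway, was at 169, 243 and 158 TPM. Its coactivator YAP1 was at 133, 149 and 136 TPM and exceeded its relative WWTR1 7.68-fold in TPM. FZD6, a WNT receptor, was at 178 ± 7.89 TPM. Of the TGF-beta receptors TGFBR2 was at 81.7, 86.5 and 74.04 TPM, 2.596-fold above TGFBR1 at 31.2 ± 4.51 TPM. NOTCH2 was at 19.6 ± 5.11 TPM, while NOTCH3 had a mean of 0.113 TPM. GLI1 and GLI2, targets and effectors of Hedgehog, had means of 0.0586 and 0.00775 TPM, and GLI3 had 0 counts.

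The RAS pathway was expressed almost throughout, at 43 of 46 genes (93.5%, beside 53.4% of all protein-coding genes). NRAS (chr1:114704469-114716894) was at 165, 128 and 161 TPM and HRAS (chr11:532242-537287) at 181, 223 and 182 TPM. Their ranges did not overlap. SHC1, an adaptor, led the list at 718 ± 23.2 TPM, followed by the phosphatase PTPN11 at 308 ± 44.9 TPM and DUSP5, which acts on ERK, at 197 ± 9.93 TPM. Of the kinases below RAS, ARAF was at 57.4, 77.04 and 60.3 TPM and BRAF at 9.57, 11.2 and 8.84 TPM, and MAPK3, which encodes ERK1, was at 32.9, 33.5 and 31.96 TPM. The lipid kinase gene PIK3CA was at 20.02, 19.96 and 19.8 TPM and PIK3CB at 34.9 ± 0.994 TPM, while PIK3CG of blood cells had 0 counts. AKT1 exceeded AKT2 1.69-fold, a direction that turned when the length of the longest transcript was used.

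Of 53 other oncogenes 45 were expressed (84.9%, beside 53.4% of all protein-coding genes). The mitotic kinase AURKA led at 489, 529 and 473 TPM, followed by the transcription factor ETS1 at 399, 424 and 422 TPM and FOSL1, an AP-1 subunit, at 276, 554 and 344 TPM. MYC (chr8:127735434-127741434) was at 131, 170.4 and 145 TPM, whereas MYCN had 0 counts and MYCL a mean of 0.476 TPM. CDK4, a kinase of G1 phase, was at 311, 235 and 311 TPM, 8.53-fold above CDK6, and 2.204-fold above it without length scaling. CCND1 was at 143, 245 and 149 TPM, 3.68-fold above CCND3, and 1.704-fold above it with the length of the longest transcript. TERT, the catalytic subunit of telomerase, was at 0.823, 2.82 and 0.709 TPM and reached 1 TPM in replicate 2 alone.

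Of 46 tumour suppressors 41 were expressed and 5 were silent: SMAD4, MAP2K4, SLIT2, ROBO2 and RNF43, the last affected by overlap. The expressed and silent shares were 89.1% and 10.9%, beside 53.4% and 30.4% of all protein-coding genes. SMAD4, the common mediator of TGF-beta signalling (chr18:51028394-51085045), had 0, 0 and 3 counts. Its neighbours on the chromosome included ELAC1 at 1.15 ± 0.203 TPM, ME2 at 1.09 ± 0.155 TPM and MEX3C at 13.6 ± 1.90 TPM. Counts were thus present on both sides of SMAD4. Of the receptor-activated members SMAD2 was at 13.9 ± 0.973 TPM and SMAD3 at 12.9, 23.1 and 14.8 TPM.

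MAP2K4, a kinase upstream of JNK (chr17:12020824-12143830), had 0 counts in all 3 libraries. The adjacent protein-coding genes ZNF18, DNAH9, SHISA6 and PIRT on one side and MYOCD on the other also had 0 counts. The nearest genes with counts were TMEM220 at 2.48 ± 0.454 TPM and ARHGAP44 at 3.36 ± 1.11 TPM, with ELAC2 at 125 ± 21.04 TPM next to the latter. Whether DNA is missing around MAP2K4 was not tested. The neighbours of SMAD4, MAP2K4 and CDKN2A were looked at after the values of these genes were seen.

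CDKN2A, which encodes the cell cycle inhibitor p16 and the alternative product ARF (chr9:21967753-21995301), was at 152, 125 and 148 TPM. The adjoining CDKN2B was at 2.90, 5.05 and 3.05 TPM and MTAP at 12.7, 14.1 and 12.2 TPM. A locus often deleted in pancreatic cancer thus gave RNA in all 3 libraries. CDKN1A, an inhibitor of cyclin-dependent kinases, was at 66.1, 48.1 and 61.98 TPM. RB1 was at 73.99 ± 1.83 TPM and STK11 at 21.2, 38.96 and 25.7 TPM. Of the chromatin suppressors SMARCB1 was at 149 ± 2.23 TPM and SMARCA2 at 11.4, 22.2 and 12.2 TPM, 4.92-fold above SMARCA4. ARID1A was at 3.74, 23.3 and 4.90 TPM, with a mean of 4.32 TPM without replicate 2.

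**Figure D3:**
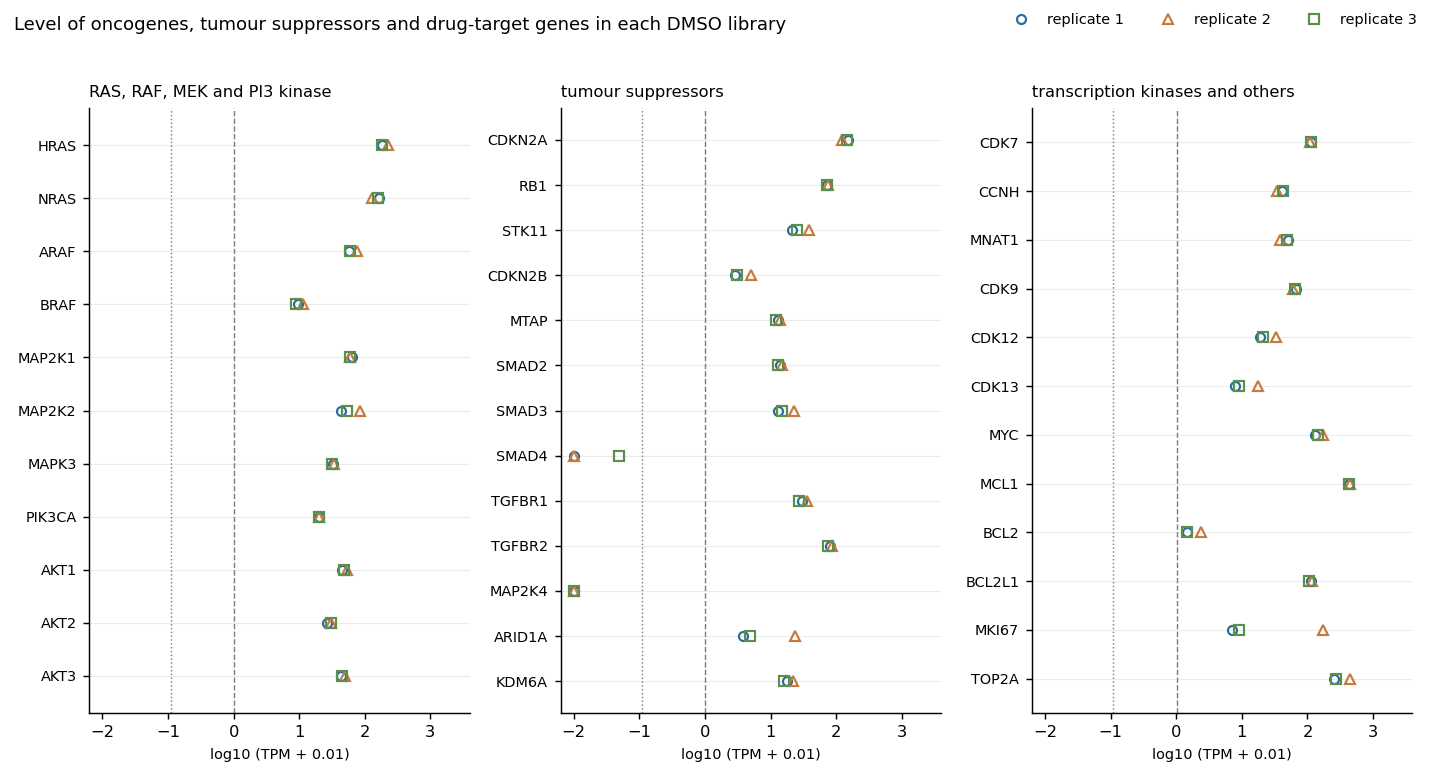
RAS pathway genes, tumour suppressors and genes of transcription kinases, survival and growth, as log10 of TPM plus 0.01 in each DMSO library; the dashed line marks 1 TPM, the dotted line 0.1 TPM and points at -2 have 0 counts. SMAD4 and MAP2K4 lie below 0.1 TPM among suppressors that are otherwise above 1 TPM. MKI67 and ARID1A show the wide gap between replicate 2 and the other libraries.

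The gene of CDK7, the kinase that THZ1 and YKL-5-124 inhibit, was expressed in the absence of the compounds. Of 27 genes of TFIIH and the transcription kinases 25 were expressed (92.6%, beside 53.4% of all protein-coding genes). CDK7 (chr5:69234795-69277430) was highest at 113, 108 and 114 TPM, with its partners CCNH at 41.6, 34.2 and 41.9 TPM and MNAT1 at 50.2, 38.00 and 48.9 TPM. CDK7 was 1.72-fold above CDK9. CDK12, a kinase of the RNA polymerase II tail, was at 19.1, 33.6 and 21.3 TPM and its relative CDK13 at 7.93, 17.8 and 8.96 TPM. POLR2A, the subunit that carries that tail, was at 3.46, 21.5 and 4.57 TPM, with a mean of 4.02 TPM without replicate 2. GTF2H4 and CDK11A are among the genes whose reads are shared with others.

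All 41 genes of the cell cycle list were expressed (100%, beside 53.4% of all protein-coding genes), with a median of 147 TPM. The mitotic cyclin gene CCNB1 was at 891, 905 and 873 TPM. CDC20, an activator of the anaphase complex, was at 772, 818 and 810.4 TPM, and UBE2C, its ubiquitin-conjugating enzyme, at 676 ± 162 TPM. PCNA and MCM7, of DNA replication, were at 729.5 ± 50.1 and 422 ± 5.95 TPM. TOP2A was at 253, 443 and 269 TPM. Of 35 genes of replication stress and DNA damage response 32 were expressed (91.4%). H2AFX led at 885 ± 136 TPM, followed by PRKDC at 196, 329 and 184 TPM and PARP1 at 192 ± 27.9 TPM. CHEK1, ATR and WEE1, checkpoint kinases, were at 55.8 ± 2.36, 19.9 ± 3.71 and 29.8 ± 7.77 TPM. SLFN11, linked to sensitivity to DNA-damaging drugs, had a mean of 0.0911 TPM.

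Of 36 apoptosis genes 31 were expressed (86.1%, beside 53.4% of all protein-coding genes). MCL1, a short-lived inhibitor of apoptosis, led at 433, 449.6 and 433 TPM, 3.91-fold above BCL2L1 in TPM. BCL2L1 was at 114, 117 and 105 TPM and BCL2 at 1.46, 2.36 and 1.43 TPM. The survival genes thus ranked in the order MCL1, BCL2L1, BCL2 in each library, with no overlap of their ranges. The effectors BAK1 and BAX were at 96.9 ± 5.08 and 95.1 ± 3.44 TPM. RIPK3, the kinase of necroptosis, had 0 counts.

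Of 49 surface antigens and antibody targets 25 were expressed and 14 silent, and these shares of 51.02% and 28.6% were near those of all protein-coding genes. NT5E, the ecto-enzyme CD73, led at 581, 700.2 and 508 TPM, followed by CD151 at 377 ± 35.2 TPM, the transferrin receptor gene TFRC at 288 ± 18.7 TPM, CD59 at 279 ± 15.8 TPM and CD9 at 211 ± 20.9 TPM. MSLN, which encodes mesothelin, was at 0.821, 2.25 and 0.912 TPM. CD274, which encodes PD-L1, was at 14.6 ± 3.19 TPM. CEACAM5, CEACAM6, MUC16, NECTIN4 and FOLR1 had 0 counts.

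Genes of class I antigen presentation were expressed, and those of class II were lower. Of 31 genes 23 were expressed (74.2%, beside 53.4% of all protein-coding genes). B2M was at 388, 296 and 373 TPM, HLA-E at 218 ± 15.5 TPM and the classical genes HLA-B and HLA-C at 32.1 ± 3.14 and 48.7 ± 5.28 TPM, where reads may be lost or split because these genes vary and resemble each other. PSMB8 of the immunoproteasome was at 95.5 ± 12.6 TPM. Of class II, HLA-DRB1 was at 0.971, 0.999 and 0.924 TPM, HLA-DRA had 0 counts, and CIITA, the regulator of class II, had a mean of 0.0737 TPM. Of 42 cytokines 11 were expressed (26.2%), led by IL32 at 190.3, 149 and 194 TPM and IL1A at 51.6, 22.3 and 54.7 TPM. IL6 had a mean of 0.0577 TPM, and CCL2, CXCL10 and CXCL12 had 0 counts.

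Metabolic genes included a lactate dehydrogenase gene with no count. LDHA, which favours lactate formation, was at 1316, 1289 and 1285 TPM. LDHB (chr12:21635342-21757857), the other main subunit, had 0 counts in all 3 libraries, with 66.6% of its exonic bases free of other genes, on which reads would count to it alone. Of 47 genes of glucose, glutamine and lipid metabolism 35 were expressed (74.5%, beside 53.4% of all protein-coding genes). PSAT1, of serine synthesis, was at 975, 878 and 981 TPM, the pyruvate kinase gene PKM at 750.3, 688 and 754 TPM, and SLC7A5 and SLC3A2, which form an amino acid transporter, at 504 ± 129.8 and 454 ± 25.7 TPM. SLC2A1 exceeded SLC2A3, another glucose transporter gene, 826-fold in TPM. SLC2A3 was at 0.117, 0.181 and 0.196 TPM, so the size of this fold rests on a level near the floor. ASNS, the asparagine synthetase gene, was at 1.62, 1.92 and 1.39 TPM.

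Of 29 genes of gemcitabine handling and drug efflux 23 were expressed (79.3%, beside 53.4% of all protein-coding genes). SLC29A1, the nucleoside transporter that takes the drug up, was at 176, 166 and 159.8 TPM. DCK, the kinase that activates it, was at 49.3, 41.9 and 50.4 TPM and CDA, the deaminase that inactivates it, at 6.57, 4.83 and 3.93 TPM. RRM1 and RRM2, the subunits of ribonucleotide reductase, were at 352 ± 10.4 and 105 ± 3.05 TPM, and TK1 and DCTD at 379 ± 17.7 and 321 ± 21.6 TPM. ABCB1, the multidrug efflux pump, had 0 counts, and ABCG2 had a mean of 0.481 TPM.

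**Figure D4:**
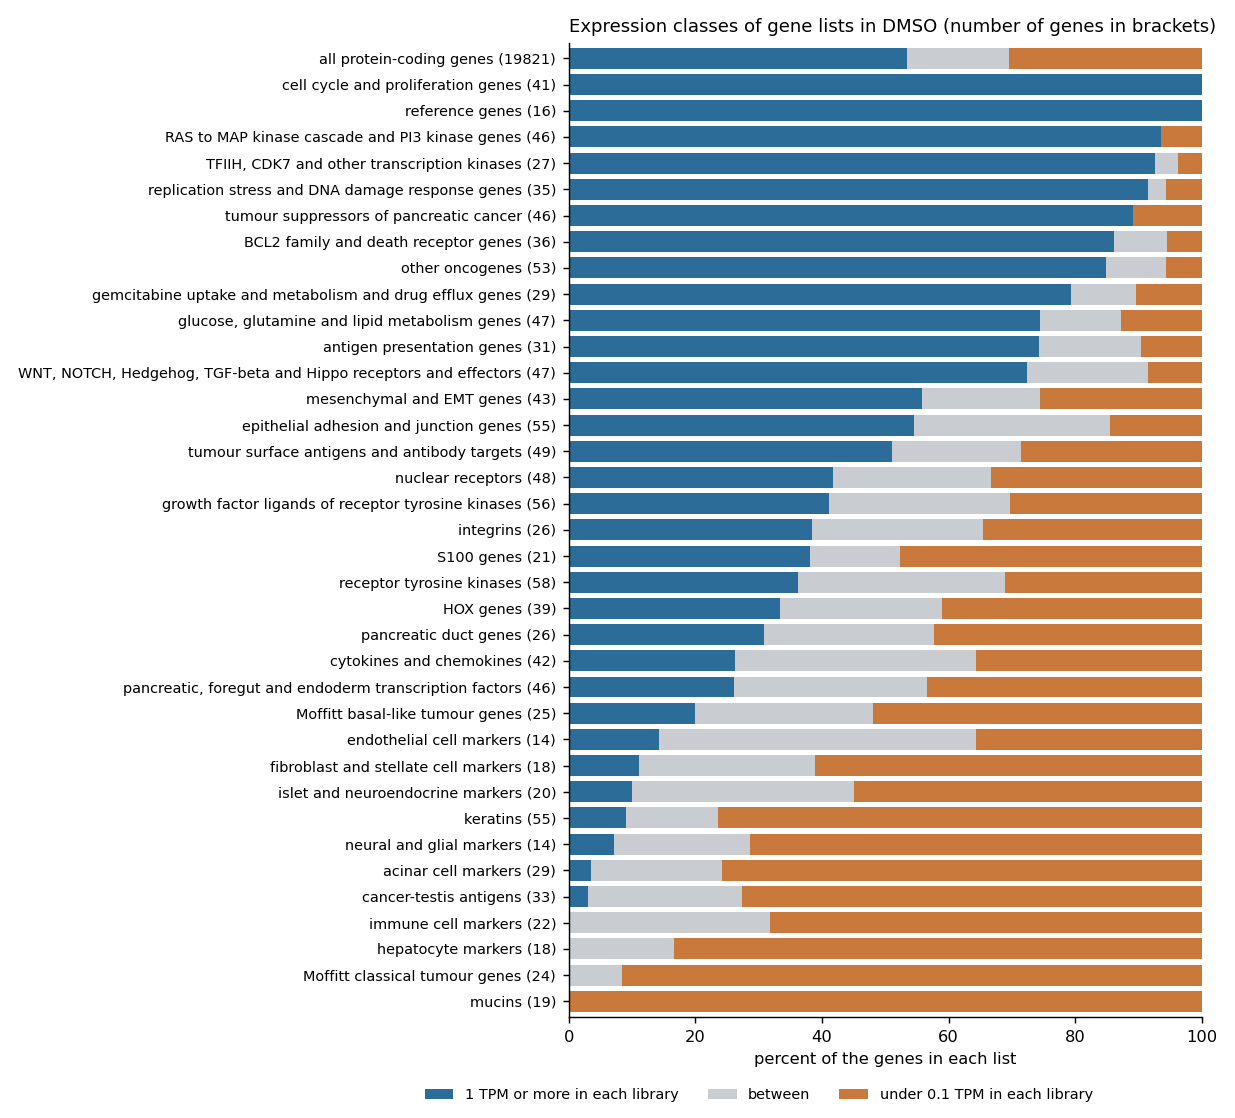
Share of the genes of each list that were at 1 TPM or more in each DMSO library (blue), under 0.1 TPM in each library (orange) or between (grey), in percent, ordered by the share expressed, with all protein-coding genes on top. Cell cycle and reference genes were all expressed, and mucins, classical subtype genes, hepatocyte and immune markers had no expressed member.

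Markers of cells that a culture should not hold were low. For comparison, 53.4% of all protein-coding genes were expressed and 30.4% were silent. Of 22 immune markers none was expressed and 15 were silent, with a summed level of 3.88 to 4.78 TPM per library, and PTPRC, the pan-leukocyte gene CD45, had 0, 0 and 1 counts. The count of none rests on replicate 2, since CORO1A, a coronin of leukocytes, was at 1.34, 0.650 and 1.38 TPM and 1 marker was expressed without that library. CD3D, CD3E, MS4A1 and TYROBP had 0 counts. Of 18 hepatocyte markers none was expressed and 15 were silent, with a summed level of 0.456 to 1.31 TPM, and ALB, the albumin gene, had 0 counts. Of 14 neural markers 10 were silent, and MBP, at 6.08 ± 0.509 TPM, was the single expressed member in a sum of 6.37 to 7.29 TPM.

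Of 14 endothelial markers 2 were expressed and 5 silent (14.3% and 35.7%, beside 53.4% and 30.4% of all protein-coding genes). EGFL7 at 47.8, 48.6 and 48.9 TPM made most of the summed 52.1 to 55.4 TPM and ESAM was at 3.20 ± 0.753 TPM, while PECAM1, ERG, EMCN and PLVAP had 0 counts. Of 18 fibroblast and stellate cell markers 2 were expressed and 11 silent (11.1% and 61.1%). TAGLN, an actin-binding protein, at 40.2, 43.8 and 39.96 TPM made most of the summed 44.1 to 49.9 TPM and ACTA2 was at 2.33 ± 0.604 TPM, while COL1A1 had a mean of 0.151 TPM and COL1A2, FAP and LUM had 0 counts. Of 33 cancer-testis antigens 24 were silent and 1 was expressed, SPANXB1, a member of a family of near-identical copies, at 3.47, 3.57 and 5.51 TPM. Without replicate 3 there were 2 expressed members, the other being ACTL8 at 1.07, 1.498 and 0.831 TPM. All 16 reference genes were expressed, from GUSB at 31.6 ± 4.76 TPM to EEF1A1.

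The most abundant RNAs included those of translation, the cytoskeleton, chaperones and iron and metal binding. FTL, the ferritin light chain that stores iron, was the highest protein-coding gene at 13832, 8823 and 12592 TPM. EEF1A1, a translation elongation factor, was at 11119.9, 10138 and 11208 TPM. TMSB10, which binds actin monomers, was at 5438, 5831 and 5700.1 TPM. The ranges of FTL and EEF1A1 overlap and those of TMSB10 lie below both.

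ACTB and ACTG1, the cytoplasmic actins, were at 5012 ± 654 and 2883 ± 46.3 TPM, the chaperones HSP90AB1, HSP90AA1 and HSPA8 at 4809 ± 204, 4093 ± 248 and 2936 ± 136 TPM, and NPM1 of the nucleolus at 4149.6 ± 414 TPM. ENO1 and GAPDH of glycolysis were at 3408 ± 242 and 2190.3 ± 162 TPM, ATP5B of the ATP synthase at 2449 ± 143 TPM, the redox protein TXN at 2347 ± 349 TPM and YBX1 at 2309 ± 238 TPM. MT1E, a metallothionein that binds zinc and copper, was at 2911, 3211 and 3404 TPM, and MT2A, of the same family, was at 1901, 2223 and 2422 TPM. KISS1 (chr1:204190341-204196486), the precursor of kisspeptins, ranked just below these at 2087, 1659 and 2027 TPM, and was singled out after its value was seen. Without length scaling, and with ribosomal protein and mitochondrial genes set aside, EEF1A1, HSP90AA1, ACTB, NPM1 and HSP90AB1 held the most counts. The metallothioneins are near-identical copies, so that reads may be split among them.

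The 89 genes of ribosomal proteins were described as a group, as were the 37 of the mitochondrial genome. RPS12, RPL8 and RPS27 led the first at 8103 ± 1215, 6706 ± 335 and 5005 ± 817 TPM. MT-CO3, MT-RNR1 and MT-CO2 led the second at 6766 ± 1266, 6494 ± 1569.6 and 5542 ± 682 TPM. Replicate 2 was the lowest library for the leading ribosomal protein genes and the highest for those of the mitochondrial genome. Of other biotypes of at least 200 bases, a Metazoa_SRP gene, a copy of the RNA of the signal recognition particle, was at 14448, 11612 and 17299 TPM. The pseudogenes RPS2P5 and RPL9P9 were at 2415 ± 295 and 1214 ± 333 TPM, and some of their reads may belong to their parent genes. SFTA1P, annotated as a lincRNA, was at 1027, 952 and 1001 TPM, above LINC00657 at 315 ± 22.4 TPM and MALAT1 at 142, 248 and 131 TPM.

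The 10 protein-coding genes with the largest ratio between libraries had exonic lengths of 4080 to 18771 bases. MKI67, the Ki-67 proliferation marker (chr10:128096659-128126385), was at 26.2, 548 and 33.8 TMM-scaled CPM, which exceeds a 20-fold range. PLEC, which encodes the cytolinker plectin, was at 13.1, 336 and 31.7 CPM and RRBP1, a ribosome-binding protein of the endoplasmic reticulum, at 2.35, 59.1 and 4.74 CPM. TNRC18, SOGA1, AHNAK2, TCOF1, PRR11, CEP250 and PRRC2A were the others, and replicate 2 was the highest library for all 10. The level of MKI67 in these cells is therefore not fixed by the DMSO libraries, while TOP2A, CCNB1 and CDC20 varied less. ELOVL6 at 41.2, 41.04 and 41.1 CPM, CDKAL1, CHMP4B, TARS2 and ZNF551 had the smallest ratios.

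Along the length of genes the ratio of replicate 2 to the mean of replicates 1 and 3 moved from a median log2 of -0.39 in the shortest of 10 equal bins (median 1733 bases) to 0.28 in the longest (median 12756 bases). The median exonic length was 8286 bases for the genes over 2-fold and highest in replicate 2, 2129 bases for those lowest in it and 5256 bases for all 8579 genes. Transcript GC content moved with it as well, at a median of 57.9% in the first of these sets and 46.7% overall. In genes that were both among the longest and in the highest of 5 equal bins of GC content the median log2 ratio was 0.76. Spearman's rho of the library's deviation with length was -0.40, 0.50 and -0.49 for replicates 1, 2 and 3, across genes, which share their libraries. The part of RNA quality or library preparation in this difference was not tested.

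**Figure D5:**
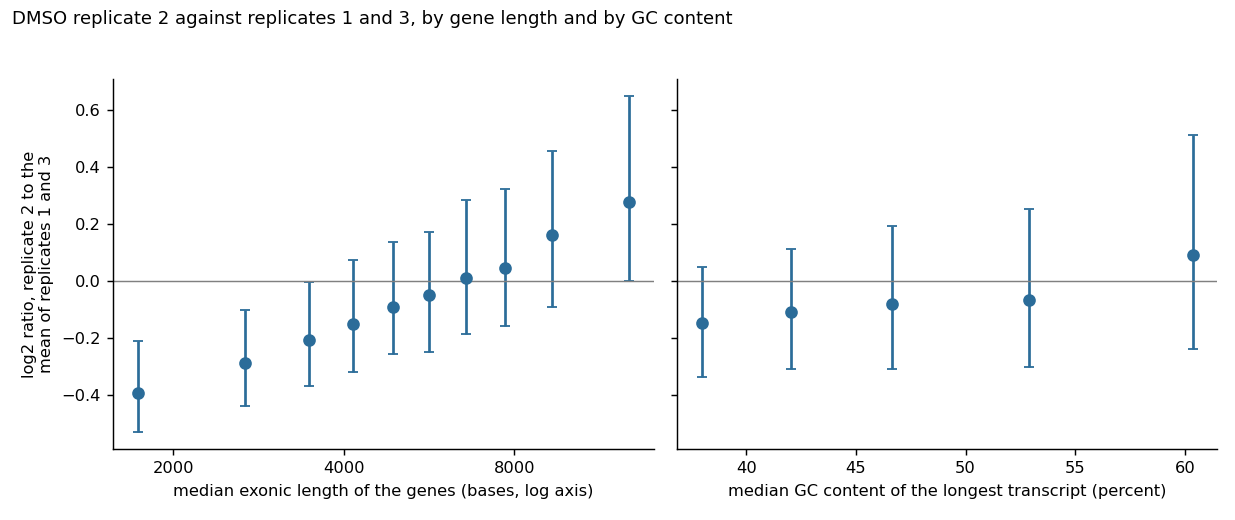
Median log2 ratio of replicate 2 to the mean of replicates 1 and 3 (TMM-scaled CPM, genes of at least 10 CPM) in 10 bins of exonic length, on a log axis in bases, and in 5 bins of transcript GC content in percent; bars span the quartiles of the genes. The median goes from -0.39 in the shortest bin to 0.28 in the longest, and is highest in the bin of highest GC content.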

How the data were processed

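Gene levels in the 3 DMSO libraries came from a single table, deposited by the authors, of raw counts per gene. The submitters' processing notes name GRCh38 as the build, STAR 2.6.1d, featureCounts 1.5.0-p3 and, among the tools, DESeq2 1.24.0. Whether the counting used strand, and how it treated reads with several matches, is not stated there or in the labels, so reads of overlapping genes and of near-identical copies may be lost or split. The table also held 12 libraries that were not used, and 0 columns of no sample. Depth was 19651529 to 20517571 counts.

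TPM were computed from the counts and the exonic gene length in the table, and CPM from library totals multiplied by TMM factors (edgeR 4.0.16, R 4.3.3, Python 3.11.15). Ratios between libraries used a pseudocount of 0.5 CPM, over genes averaging 10 CPM or more. Dispersion was estimated with edgeR after filterByExpr and, as an alternative, with DESeq2 1.42.0. The functions for levels and dispersion were tested on simulated data. Shared exonic bases, transcript length and GC content came from GENCODE release 29, which held 100% of the gene IDs, 95.3% of them with identical ends. Promoter windows came from RefSeq (GRCh38.p14). They matched 76.8% of protein-coding genes by symbol, under the 80% set for a check over the set, so the check of promoter features by expression class is void and not given.

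Members, 32 gene lists, 4 gene families and 31 gene pairs were chosen with earlier results of these data known. The text names the 15 highest protein-coding genes by TPM and the 5 highest by CPM, in both cases with ribosomal protein and mitochondrial genes set aside and described as groups, the 5 highest of other biotypes, up to 5 members of each list, set anchor genes of pancreatic cancer, the genes of the pairs, and the 10 most and 5 least variable genes. List members outside this rule, mostly those at or near 0, were named after their values were seen. Some genes of the rule are not reported here. Alternatives were other thresholds, length and scaling choices, filters and leaving out each library. With 1 group no test was made. P-values are therefore absent, and the spread between libraries may be technical.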

Additional observations from a re-analysis of the deposited data

How the results depend on the processing

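The numbers of expressed and silent protein-coding genes stayed within 1.5 times under each alternative run, from 8669 to 11183 for expressed genes (10581 as reported) and from 4672 to 6452 for silent ones (6032). The lowest values came from genes with at least 90% of their bases unshared, which are fewer genes, an alternative chosen after seeing the data like the longest transcript length. The number of genes over 2-fold between libraries was 863 with a minimum of 1 CPM and 1147 with no filter beyond 1 count, and 4 to 376 with each library left out, the lowest without replicate 2. The median ratio was 1.23 with library totals, 1.24 with RLE factors, 1.28 with a minimum of 1 CPM, 1.24 with no filter and 1.06 to 1.22 with each library left out. The coefficient of variation was 0.217 with no filter, 0.113 as the median of DESeq2's gene-wise estimates and 0.0613 to 0.261 with each library left out. The length slope of replicate 2 was 0.145 log2 units per doubling of length, 0.144 without ribosomal protein genes and 0.122 for genes of at least 100 CPM.

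Of 252 list counts under alternatives 234 stayed within 1.5 times. Of the other 18, 9 came from TMM-scaled counts per kilobase, 4 from a threshold of 0.5 TPM, 3 from 2 TPM and 1 each from leaving out replicate 2 and replicate 3. The 9 all had fewer expressed members than reported. Among them, endodermal transcription factors fell from 12 to 6, duct genes from 8 to 5 and HOX genes from 13 to 5. Islet markers fell from 2 to 0 and acinar markers from 1 to 0. At 2 TPM, 7 HOX genes and 0 islet markers were expressed. Of 130 pair ratios under alternatives 90 moved by less than the spread between libraries, 37 by more, and 3 turned direction. Folds of 16 of 26 pairs moved by over 1.5 times under at least 1 alternative, and those printed above, other than AKT1 to AKT2, carry the value beside them. The 3 that turned were these: log2 AKT1 to AKT2 was -0.335 with the longest transcript, and log2 IGF1R to INSR was -0.0613 with it and -0.115 to 0.110 with each library left out, the lowest without replicate 2. No paired analysis was possible because 1 group alone is described and no result comes from a test. With 3 libraries in the group no library could be singled out by an outlier rule.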
